A study of Mus musculus with 4 samples.

Results

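The EGF receptor family and its ligands were followed in RNA of 4 mammary tumors of female mice. Its 10 members were picked by gene symbol from what the family is known to hold, with earlier results of these data known, and all 10 were found among the 23746 gene rows of the expression tables. The members were the receptor genes Egfr, Erbb2, Erbb3 and Erbb4 and the ligand genes Egf, Tgfa, Hbegf, Btc, Ereg and Epgn. The 2 triple-mutant tumors (26043 and 26044) carried the genotype WapCre;Rank;Brca1;p53 and the 2 double-mutant tumors (26048 and 26050) the genotype WapCre;Brca1;p53. In both genotypes a Cre recombinase under the Wap promoter, active in luminal and basal cells of the mammary epithelium, removed floxed Brca1 and p53 alleles, and each tumor was a piece of bulk tissue that also held other cells. Triple-mutant mice also carried floxed alleles of Rank (Tnfrsf11a), the receptor of RANKL, and there was no tumor with intact Brca1 and p53 for comparison. The age of the mice was not given in the sources used here. Rank RNA was at 2.07 and 0.962 FPKM in the triple-mutant tumors and at 10.6 and 11.9 FPKM in the double-mutant tumors, lower in the tumors whose label gives its deletion. Brca1 RNA was at 3.26 and 3.28 against 3.84 and 5.69 FPKM, and p53 (Trp53) RNA at 15.7 and 87.8 against 149.7 and 103 FPKM. These values cover whole genes and not the floxed exons. FPKM are fragments scaled to transcript length and to the mapped fragments of the tumor, and comparisons between genes rest on that scaling. They are approximate. In each tumor 5668 to 6827 of the 23746 genes had a value outside the interval that Cufflinks, the program that estimated the values, gave for it.

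ErbB receptors are tyrosine kinases of the cell surface that pair with one another when a ligand binds. EGF, TGF-alpha, amphiregulin and epigen bind EGFR, whereas HB-EGF, betacellulin and epiregulin bind both EGFR and ERBB4. ERBB2 has no known soluble ligand and serves as the preferred partner of the others, and ERBB3 has a weak kinase and signals through its partners after binding neuregulins. The ligands are made as membrane proteins and are released by metalloproteases. In the mammary gland amphiregulin from luminal cells acts on stromal EGFR during ductal growth, and ERBB2 is amplified in a subset of human breast cancers.

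All coordinates are on mm10, the build that the submitters' processing notes name, counted from 1. Egfr spans chr11:16752203-16913907 and Erbb2 spans chr11:98412484-98437716 on the same chromosome. Erbb3 lies at chr10:128569368-128589501 and Erbb4 at chr1:68039966-69108059. Of the ligands, Egf lies at chr3:129677575-129755322 and Tgfa at chr6:86195251-86275449. Epgn, Ereg and Btc are neighbours on chromosome 5, at 91027517-91035212, 91074617-91093649 and 91357261-91402994, with the amphiregulin gene Areg between Ereg and Btc at 91139615-91148432. These 4 ligand genes fall within 375478 bases. GENCODE M21 annotates each of them and each member as protein coding.

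Upstream sequences were matched for 7 of the 10 members in RefSeq (GRCm38.p6). The 250 bases before the transcription start are shown for 4 genes, chosen because Egfr and its ligand gene Areg were both higher in each triple-mutant tumor than in either double-mutant tumor, and because Tgfa and Epgn are a ligand of high and a ligand of low expression. Capitals mark GGGCGG, known as a GC box, on either strand. The other capitals mark the TATA box, searched as TATAAA on either strand, and the marked motifs do not overlap one another. All 4 are on the plus strand, 5′ to 3′.
Egfr, chr11:16751953-16752202: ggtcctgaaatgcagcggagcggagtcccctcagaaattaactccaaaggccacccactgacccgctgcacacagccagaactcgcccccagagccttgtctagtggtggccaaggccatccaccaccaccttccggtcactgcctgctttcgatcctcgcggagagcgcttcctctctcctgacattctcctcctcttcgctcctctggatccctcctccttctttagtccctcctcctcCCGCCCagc
Areg, chr5:91139349-91139598: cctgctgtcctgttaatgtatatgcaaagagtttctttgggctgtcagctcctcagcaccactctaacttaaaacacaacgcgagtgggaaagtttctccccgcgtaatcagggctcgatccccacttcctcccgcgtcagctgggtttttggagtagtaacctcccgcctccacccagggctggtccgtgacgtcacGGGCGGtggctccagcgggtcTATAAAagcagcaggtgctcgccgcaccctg
Tgfa, chr6:86194972-86195221: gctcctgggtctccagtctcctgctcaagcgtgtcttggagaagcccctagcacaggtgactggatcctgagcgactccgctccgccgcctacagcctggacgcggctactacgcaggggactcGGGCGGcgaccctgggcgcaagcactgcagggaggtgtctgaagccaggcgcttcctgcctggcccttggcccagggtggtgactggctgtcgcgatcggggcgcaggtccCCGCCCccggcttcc
Epgn, chr5:91027267-91027516: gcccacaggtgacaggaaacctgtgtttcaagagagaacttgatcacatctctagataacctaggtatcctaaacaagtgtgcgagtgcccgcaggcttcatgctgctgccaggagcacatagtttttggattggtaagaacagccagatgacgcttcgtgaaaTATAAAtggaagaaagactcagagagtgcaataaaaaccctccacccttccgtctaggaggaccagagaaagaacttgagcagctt
The Egfr window holds 1 GC box, 9 bases before the start, and no TATAAA. The Areg window holds 1 GC box 52 bases and 1 TATAAA 31 bases before the start. Tgfa has 2 GC boxes, 126 and 15 bases before the start, and Epgn has 1 TATAAA 86 bases before it. Of all 32851 promoter windows of this length, 32.7% hold GGGCGG and 12.4% hold TATAAA on either strand. GC content was 60.8% for Egfr, 57.2% for Areg, 69.2% for Tgfa and 46.8% for Epgn, against a median of 52.4% over all windows. These matches describe the letters of the window and were not tested for binding.

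The tumors differed in the RNA of luminal, basal and stromal markers. The 7 luminal markers (Krt8, Krt18, Krt19, Epcam, Elf5, Kit and Cd14) summed to 431 FPKM in triple-mutant tumor 26044 and to 2049 to 2926 FPKM in the other tumors. Of the 7, 6 were lowest in tumor 26044, beside 39% of all tested genes. The 7 basal markers summed to 1285 to 1751 FPKM in triple-mutant and 48.7 to 72.4 FPKM in double-mutant tumors, with 6 of 7 higher in both triple-mutant tumors. The 2 triple-mutant sums were made up differently. Krt5 was at 596 and 114 FPKM and Acta2 at 64.8 and 898 FPKM in tumors 26043 and 26044. Over all tested genes, 21.3% were higher in both triple-mutant and 22.9% in both double-mutant tumors, which is the background to these marker counts. Of 6 fibroblast markers 4 were higher in both double-mutant tumors and Pdgfra was higher in both triple-mutant tumors (2.90 and 19.1 against 1.63 and 1.44 FPKM), with list sums of 112 to 196 FPKM in triple-mutant and 425 to 881 FPKM in double-mutant tumors. Of 5 myeloid markers 4 were higher in both double-mutant tumors (sums of 147 to 150.1 against 313 to 467 FPKM). The 5 adipocyte markers summed to 157 FPKM in double-mutant tumor 26048 and to at most 2.04 FPKM in the others. Adipoq, Plin1 and Retn were at 0 in tumor 26044 only, and Lep was at 0 in every tumor but 26048 (0.202 FPKM). Of 6 hormone-sensing markers 4 were higher in both triple-mutant tumors (sums of 103 to 113 against 27.2 to 61.9 FPKM). Endothelial markers summed to 78.1 FPKM in tumor 26044 and 24.7 to 43.8 FPKM elsewhere, and 0 of 5 separated the genotypes. Lymphoid markers summed to 0.504 to 1.67 FPKM. Of 5 skin markers 4 were higher in both triple-mutant tumors, with sums of 182 FPKM in tumor 26043, 18.7 FPKM in tumor 26044 and 2.46 to 9.28 FPKM in the double-mutant tumors. In whole-tumor RNA, fewer cells of a type and less RNA per cell cannot be told apart. The part of these differences in the values of the ErbB family was not tested unless a value is given.

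Erbb2, Erbb3, Tgfa, Hbegf and Egfr were the more abundant members, and their order differed between tumors. Erbb2 was the highest member in tumor 26043, Hbegf in tumor 26044, Erbb3 in tumor 26048 and Tgfa in tumor 26050. Erbb4, Egf, Ereg and Epgn stayed under 1 FPKM in each tumor, as did Btc except in tumor 26043 (2.43 FPKM). Over the 4 tumors Erbb2 averaged 25.6 ± 19.9 FPKM (SD, n = 4) and Erbb3 24.2 ± 12.8 FPKM (SD, n = 4), and each was the higher of the pair in 2 of 4 tumors. Tgfa averaged 17.9 ± 11.7 FPKM (SD, n = 4) and Hbegf 9.47 ± 6.31 FPKM (SD, n = 4), and Erbb3 was above Tgfa in 2 of 4 tumors and Tgfa above Hbegf in 2 of 4. Egfr averaged 3.79 ± 2.27 FPKM (SD, n = 4) and was below Hbegf in 3 of 4 tumors. Each difference between the means of these neighbours in the order was smaller than the larger of their SDs. The SDs cover both genotypes, and the order was not tested. Btc, at 0.879 ± 1.04 FPKM (SD, n = 4), was below Egfr and above Epgn in 4 of 4 tumors. Of the 10 members, 5 reached 1 FPKM in at least 2 tumors and were tested, namely Egfr, Erbb2, Erbb3, Tgfa and Hbegf.

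**Figure D1:**
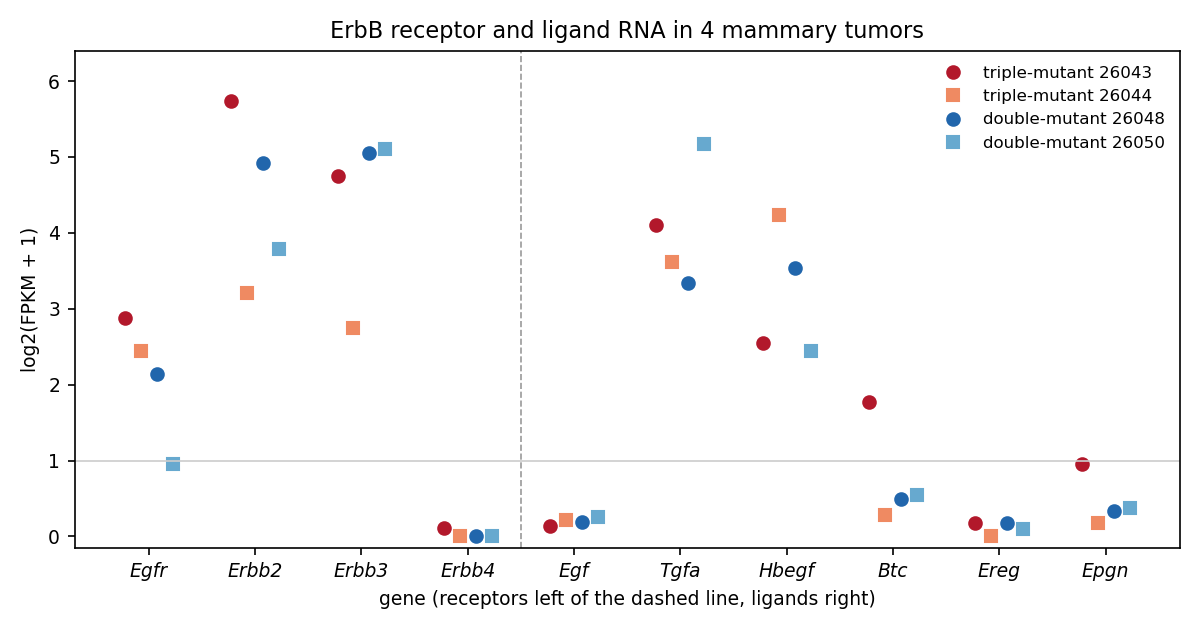
Level of each member in each tumor, as log2(FPKM + 1), receptors to the left and ligands to the right of the dashed line, with 1 point per tumor and the grey line at 1 FPKM. For Egfr the triple-mutant points lie higher than the double-mutant points, for Erbb3 lower, and the genotypes overlap for Erbb2, Tgfa and Hbegf.

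The question of the comparison was whether tumors with deleted Rank differ in their expression of the family. No member passed the test between genotypes. Values of log2(FPKM + 1) were compared with limma over 12752 genes, p-values were adjusted by the Benjamini-Hochberg method, and the threshold was 0.05. At that threshold 0 of the 5 tested members and 0 (0%) of all 12752 genes were called, and at an unadjusted p under 0.05 there were 0 members against 1252 genes (9.82%). Adjusted p of the members ranged from 0.553 to 0.972. For 1 gene alone, an exact two-sided permutation test with 2 tumors a side cannot go below p = 0.333. Egfr was the member with both triple-mutant tumors above both double-mutant tumors (1 of 5, against 21.3% of all tested genes), and Erbb3 the member with both double-mutant tumors above (1 of 5, against 22.9%). These shares are close to the background, and the median log2 fold change of the 5 members was 0.12, beside -0.02 over all genes tested. Between tumors of the same genotype the members differed by a median of 1.69 log2 units in the triple-mutant and 1.13 in the double-mutant pair, beside 0.45 and 0.36 over all tested genes.

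Egfr, the receptor of EGF-like ligands, was at 6.37 and 4.42 FPKM in the triple-mutant tumors 26043 and 26044 and at 3.43 and 0.930 FPKM in the double-mutant tumors 26048 and 26050. The genotypes did not overlap, and tumor 26050 was the lowest. The intervals that Cufflinks gave for Egfr were 5.90 to 6.88 and 4.02 to 4.83 FPKM in triple-mutant and 3.05 to 3.80 and 0.768 to 1.09 FPKM in double-mutant tumors, and they did not overlap between tumors. They cover the measurement of each tumor and not the spread between tumors. Mean expression was 5.40 ± 1.38 FPKM over the triple-mutant pair (SD, n = 2) and 2.18 ± 1.77 FPKM over the double-mutant pair (SD, n = 2). Triple-mutant minus double-mutant, the log2 fold change was 1.11 with a standard error of 0.52 (adjusted p = 0.553 from limma). Without double-mutant tumor 26050 it was 0.51. Egfr was thus the tested receptor with the lowest level, between the percentiles 5.79 and 32.0 of all tested genes.

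Erbb2, the receptor without a known soluble ligand, was at 52.3 and 8.22 FPKM in triple-mutant tumors 26043 and 26044 and at 29.2 and 12.8 FPKM in double-mutant tumors 26048 and 26050. The triple-mutant tumors held both the highest and the lowest value, 6.36-fold apart, so the genotypes overlapped. The double-mutant tumors were 2.28-fold apart. For Erbb2 the log2 fold change was 0.12 with a standard error of 0.96 (adjusted p = 0.972 from limma). It was 1.39 without tumor 26044 and -1.15 without tumor 26043, so its direction rested on single tumors. The 4 Erbb2 values all lay above the intervals that Cufflinks gave for them, for instance 52.3 FPKM against an interval of 41.3 to 44.3 FPKM in tumor 26043. The Erbb2 interval shares 9 bases with that of the neighbouring gene 1810046J19Rik.

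Erbb3, the neuregulin receptor with a weak kinase, was at 25.8 and 5.70 FPKM in triple-mutant tumors 26043 and 26044 and at 32.1 and 33.4 FPKM in double-mutant tumors 26048 and 26050. The double-mutant tumors were nearly equal, 1.04-fold apart, and the triple-mutant tumors 4.53-fold apart, with tumor 26044 the lowest. For Erbb3 the log2 fold change was -1.33 with a standard error of 0.71 (adjusted p = 0.589 from limma). Without tumor 26044 it was -0.33, and without tumor 26043 it was -2.33. The size of the difference thus turned on which triple-mutant tumor was kept. In tumor 26044, 6 of 7 luminal and 5 of 6 fibroblast markers were also lowest, beside 39% of all tested genes. The part of luminal or other cell content was not tested.

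Erbb4, the remaining neuregulin receptor, was listed at 0.0836 FPKM in tumor 26043 and at 0 in the other 3 tumors. It did not pass the filter of the main fit. In the fit without a filter its log2 fold change was 0.058 with a standard error of 0.052 (adjusted p = 0.738 from limma).

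Set beside luminal genes, the levels of Erbb2 and Erbb3 depended on which luminal gene was the denominator. This comparison was made after the values were seen and is given without a test. With 5 of the 7 luminal markers (Krt8, Krt18, Epcam, Elf5 and Cd14) the Erbb2 ratio was higher in both triple-mutant tumors. It overlapped with 1 (Kit) and had the opposite order with 1 (Krt19). Krt8, Krt18, Epcam and Elf5 were themselves higher in both double-mutant tumors, and Krt19 in both triple-mutant tumors. Kit, Cd14 and Erbb2 itself overlapped between genotypes. No background share over all genes was computed for such ratios. Of the denominators, Krt8, Krt19 and Cd14 had 0 tumors inside their own Cufflinks interval, Krt18 and Epcam had 1, and Elf5 and Kit had 4. For Erbb2 the share of Krt8, a keratin of luminal epithelium, was 9.04% and 8.36% in triple-mutant and 4.13% and 1.82% in double-mutant tumors. Its share of Krt19, another such keratin, was 4.53% and 4.25% in triple-mutant and 20.98% and 22.5% in double-mutant tumors, a full separation in the other direction. Krt8 itself was at 579 and 98.3 FPKM in triple-mutant and at 708 and 701 FPKM in double-mutant tumors, whereas Krt19 was at 1154 and 194 against 139 and 56.7 FPKM. For Erbb3 the genotypes overlapped with 4 of the 7 denominators (Krt8, Krt18, Epcam and Cd14), and the ratio was higher in triple-mutant tumors with Elf5 and in double-mutant tumors with Krt19 and Kit. Its share of Krt8 was 4.46% and 5.80% in triple-mutant and 4.54% and 4.76% in double-mutant tumors, and its share of Krt19 was 2.23% and 2.94% against 23.1% and 58.9%. No direction of either receptor relative to luminal content thus held over the 7 markers. Basal markers were higher in the triple-mutant tumors, and their part in these ratios was not tested.

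**Figure D2:**
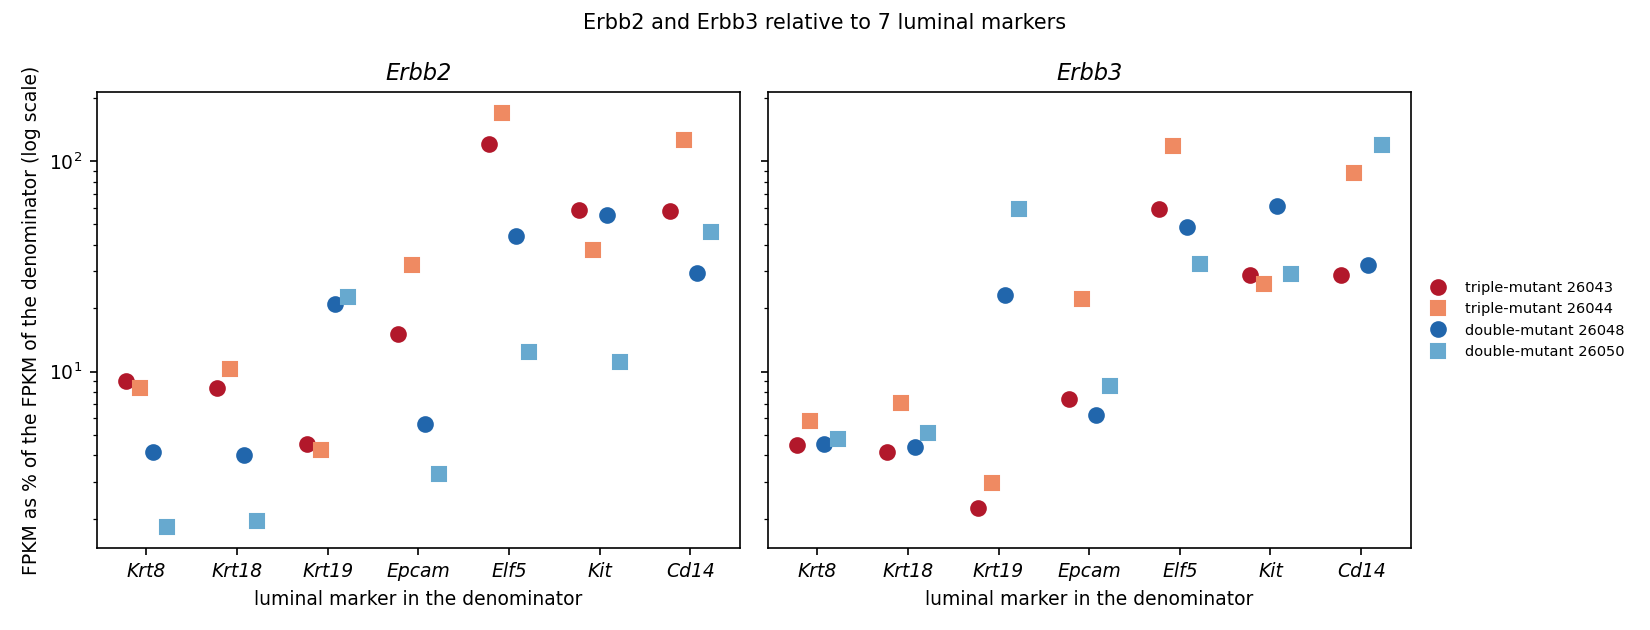
Erbb2 (left) and Erbb3 (right) FPKM as a percentage of the FPKM of each of the 7 luminal markers on a log scale, with 1 point per tumor. For Erbb2 the triple-mutant points lie above the double-mutant points with 5 denominators, overlap with Kit and lie below with Krt19, and for Erbb3 the genotypes overlap with 4 denominators.

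Erbb2 made up 61.9% and 44.8% of the summed FPKM of the 4 receptors in triple-mutant tumors and 45.1% and 27.1% in double-mutant tumors. For Erbb3 the shares were 30.5% and 31.1% in triple-mutant and 49.6% and 70.9% in double-mutant tumors. Egfr made up 7.54% and 24.1% in triple-mutant and 5.29% and 1.97% in double-mutant tumors. Erbb2 was thus the more abundant of the pair Erbb2 and Erbb3 in both triple-mutant tumors, at 2.03 and 1.44 times Erbb3. In both double-mutant tumors it was the less abundant, at 0.909 and 0.383 times Erbb3. This comparison of the pair was likewise made after the values were seen and is given without a test. Erbb2 alone overlapped between genotypes, whereas Erbb3 alone was higher in both double-mutant tumors. The summed FPKM of the 4 receptors was 84.6 and 18.3 in triple-mutant and 64.7 and 47.1 in double-mutant tumors, lowest in tumor 26044.

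Tgfa, the gene of TGF-alpha, was the member ligand of highest mean level, at 16.2 and 11.3 FPKM in triple-mutant tumors 26043 and 26044 and at 9.08 and 34.9 FPKM in double-mutant tumors 26048 and 26050. The double-mutant tumors held both the lowest and the highest value, 3.84-fold apart. For Tgfa the log2 fold change was -0.39 with a standard error of 0.68 (adjusted p = 0.862 from limma), and it was 0.53 without tumor 26050.

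Hbegf, the gene of heparin-binding EGF, was at 4.87 and 17.9 FPKM in triple-mutant tumors 26043 and 26044 and at 10.7 and 4.42 FPKM in double-mutant tumors 26048 and 26050. Here the triple-mutant tumors held the highest and the second lowest value, and the order over the 4 tumors was the reverse of that of Tgfa except between tumors 26044 and 26048. For Hbegf the log2 fold change was 0.41 with a standard error of 0.73 (adjusted p = 0.863 from limma), and it was -0.44 without tumor 26044.

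The other 4 member ligands were low and did not pass the filter of the main fit. Btc, the gene of betacellulin, was at 2.43 and 0.219 FPKM in triple-mutant and at 0.406 and 0.463 FPKM in double-mutant tumors. Epgn, the gene of epigen, was at 0.930 and 0.127 FPKM in triple-mutant and at 0.259 and 0.298 FPKM in double-mutant tumors. In both genes tumor 26043 was the highest and tumor 26044 the lowest, so the double-mutant values lay between the triple-mutant values. Ereg, the gene of epiregulin, ranged from 0.00573 FPKM in tumor 26044 to 0.131 FPKM in tumor 26043, with 0.128 and 0.0676 FPKM in the double-mutant tumors. Egf was at 0.0964 and 0.160 FPKM in triple-mutant and at 0.141 and 0.196 FPKM in double-mutant tumors, and its genotypes also overlapped.

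Outside the members, 37 genes that act with the family were listed by role, 36 of which were tested. Of these, Nrg2, Rhbdf1, Rhbdf2, Grb7, Lrig1, Ptpn1, Dusp6 and the Sprouty genes are named below after their values were seen. None of the 36 passed an adjusted p of 0.05 in limma. At an unadjusted p under 0.05 there were 4 (Areg, Errfi1, Lrig3 and Ptpn1), beside 1252 (9.82%) of all 12752 tested genes. The genotypes were separate with higher triple-mutant values in 8 and higher double-mutant values in 6 of the 36, beside 21.3% and 22.9% of all tested genes, and the median log2 fold change was 0.0027. The smallest adjusted p was 0.205.

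Among ligands that are not members, 2 of the 4 tested genes separated the genotypes with higher triple-mutant values and 0 with higher double-mutant values, beside 21.3% and 22.9% of all tested genes, and 4 genes are too few to read a share from. Areg, the amphiregulin gene, was at 30.1 and 7.86 FPKM in triple-mutant tumors 26043 and 26044 and at 2.12 and 2.07 FPKM in double-mutant tumors. Its value in tumor 26043 lay below the interval of 35.8 to 41.7 FPKM that Cufflinks gave for it. The double-mutant tumors were nearly equal and the triple-mutant tumors were both higher, though unequal. For Areg the log2 fold change was 2.42 with a standard error of 0.67 (adjusted p = 0.458 from limma), and it ran from 1.52 to 3.33 with each tumor left out. Over the 6 member ligands and Areg together, Areg made up 55.0% and 20.9% of the summed FPKM in triple-mutant and 9.30% and 4.89% in double-mutant tumors. Its neighbours on chromosome 5, Ereg, Epgn and Btc, overlapped between genotypes as described above. Nrg1, a neuregulin that binds ERBB3 and ERBB4, was at 6.21 and 1.26 FPKM in triple-mutant and at 0.816 and 0.372 FPKM in double-mutant tumors, and limma gave a log2 difference of 1.36 ± 0.64 (SE) and an adjusted p of 0.559. It was 0.52 without tumor 26043 and 2.19 without tumor 26044. Nrg2, another neuregulin, was at 110.2 FPKM in tumor 26044 and at 6.97, 5.0 and 11.1 FPKM in tumors 26043, 26048 and 26050. The Nrg2 value in tumor 26044 lay far above the interval of 45.0 to 49.0 FPKM that Cufflinks gave for it.

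**Figure D3:**
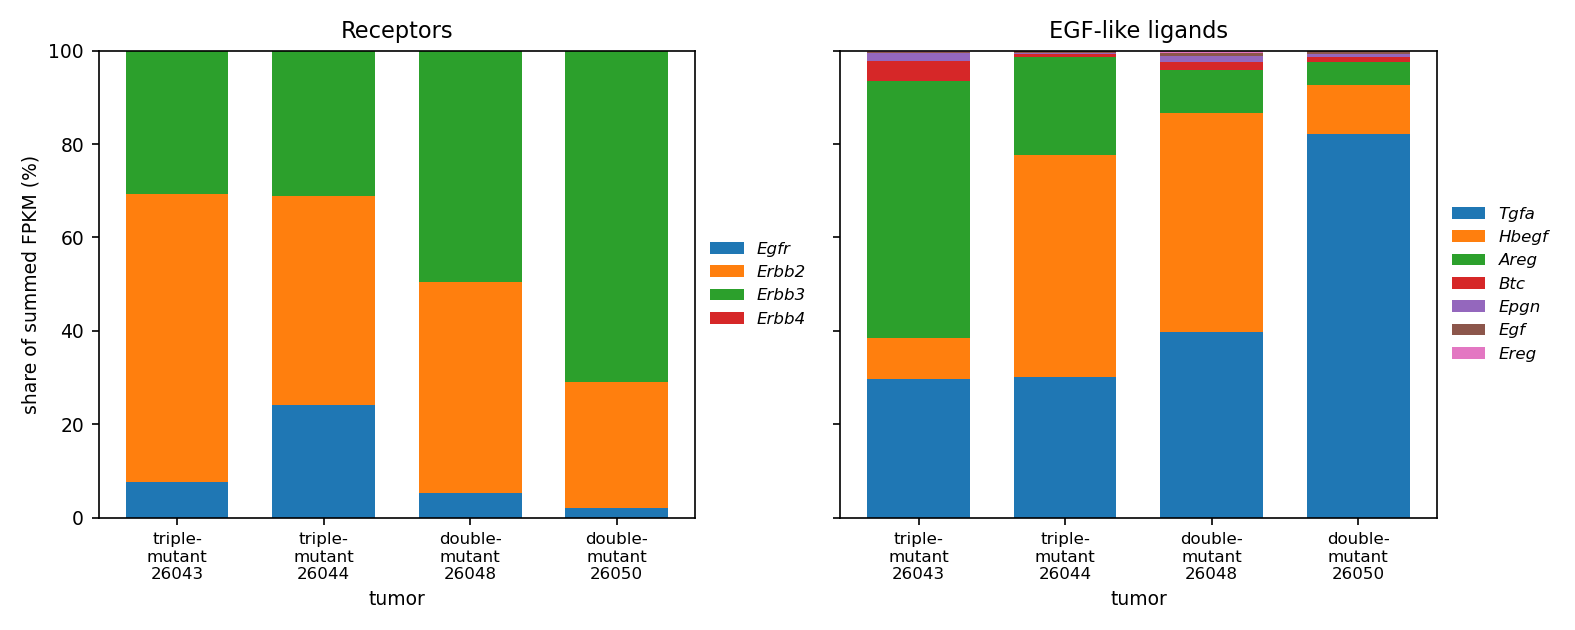
Share of each gene in the summed FPKM of the receptors (left) and of the EGF-like ligands with Areg (right), in percent, 1 bar per tumor. Of receptor FPKM, Erbb3 takes 30.5% and 31.1% in triple-mutant against 49.6% and 70.9% in double-mutant tumors, and of ligand FPKM Areg takes 55.0% and 20.9% against 9.30% and 4.89%.

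Of the 4 tested genes for release of the ligands, 1 separated the genotypes in each direction, beside 21.3% and 22.9% of all tested genes. The log2 fold change was negative in 3 of the 4, beside 6579 of all 12752 tested genes. None passed the test, and 4 genes are too few to read a share from. Adam17, the main sheddase of TGF-alpha, amphiregulin and HB-EGF, was at 11.4 and 6.59 FPKM in triple-mutant and at 21.1 and 14.8 FPKM in double-mutant tumors, and limma gave a log2 difference of -0.94 ± 0.40 (SE) and an adjusted p of 0.535. It was -0.58 without tumor 26044. Adam10, the sheddase of EGF and betacellulin, was at 58.9 and 33.3 FPKM in triple-mutant and at 28.5 and 31.2 FPKM in double-mutant tumors, and limma gave a log2 difference of 0.56 ± 0.37 (SE) and an adjusted p of 0.648. Without tumor 26043 the Adam10 difference was 0.15. The iRhom genes Rhbdf1 and Rhbdf2, whose proteins carry ADAM17 to the cell surface, overlapped between genotypes.

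Of the 10 adaptor genes, 8 overlapped between genotypes, beside 55.7% of all tested genes, and 8 were lowest in tumor 26044, where 39% of all tested genes were lowest. Shc1, an adaptor of the RAS pathway, was at 39.9 and 80.0 FPKM in triple-mutant and at 38.5 and 26.9 FPKM in double-mutant tumors, and limma gave a log2 difference of 0.79 ± 0.44 (SE) and an adjusted p of 0.601. It was 0.30 without tumor 26044 and 1.29 without tumor 26043. Sos2, a RAS exchange factor, was at 4.87 and 2.81 FPKM in triple-mutant and at 7.45 and 6.22 FPKM in double-mutant tumors, and limma gave a log2 difference of -0.72 ± 0.37 (SE) and an adjusted p of 0.577. It was -0.41 without tumor 26044. Grb7 starts 34350 bases beyond the start of Erbb2. It was at 26.6 and 3.40 FPKM in triple-mutant and at 19.5 and 12.2 FPKM in double-mutant tumors, the same order of tumors as Erbb2. Pgap3 and 1810046J19Rik, whose starts lie nearer to that of Erbb2, had other orders. Pgap3 was lowest and 1810046J19Rik highest in tumor 26050. The share of all genes with the Erbb2 order was not computed.

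Among the 18 ubiquitin ligases and inhibitors, 4 were higher in both triple-mutant and 4 in both double-mutant tumors, near the background of 21.3% and 22.9% of all tested genes. Errfi1, whose protein MIG6 binds and inhibits the EGFR kinase and is itself induced by EGFR signaling, was at 25.1 and 25.9 FPKM in triple-mutant tumors 26043 and 26044 and at 129 and 90.9 FPKM in double-mutant tumors 26048 and 26050. The triple-mutant tumors were nearly equal, although they differed widely in Erbb2 and Erbb3, and both were below the double-mutant tumors. In Egfr the triple-mutant tumors were 1.44-fold apart. The Errfi1 value in tumor 26044 lay below its Cufflinks interval of 28.4 to 31.5 FPKM, and the interval in tumor 26043 was 24.9 to 28.0 FPKM. The log2 fold change was -2.05 with a standard error of 0.30, and the adjusted p of 0.205 from limma was the smallest among the family and pathway genes. With each tumor left out the log2 fold change ran from -2.30 to -1.79. Lrig3, a relative of the EGFR inhibitor Lrig1, was at 4.37 and 5.44 FPKM in triple-mutant and at 1.25 and 0.791 FPKM in double-mutant tumors, and limma gave a log2 difference of 1.55 ± 0.33 (SE) and an adjusted p of 0.347. Lrig1 was at 32.8 and 12.0 FPKM in triple-mutant and at 11.6 and 10.3 FPKM in double-mutant tumors, so tumor 26044 lay near the double-mutant level. Ptpn1, a phosphatase that acts on EGFR, was at 41.2 and 38.5 FPKM in triple-mutant and at 26.3 and 16.5 FPKM in double-mutant tumors, and limma gave a log2 difference of 0.90 ± 0.34 (SE) and an adjusted p of 0.508. Without tumor 26050 it was 0.58. The feedback gene Dusp6, a phosphatase of ERK that is induced by it, was at 91.3 and 151 FPKM in triple-mutant and at 99.5 and 104 FPKM in double-mutant tumors, with overlapping genotypes. Of the Sprouty genes, inhibitors of the RAS pathway, Spry1 and Spry4 overlapped, and Spry2 was at 17.9 and 12.9 FPKM in triple-mutant and at 22.1 and 19.0 FPKM in double-mutant tumors.

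**Figure D4:**
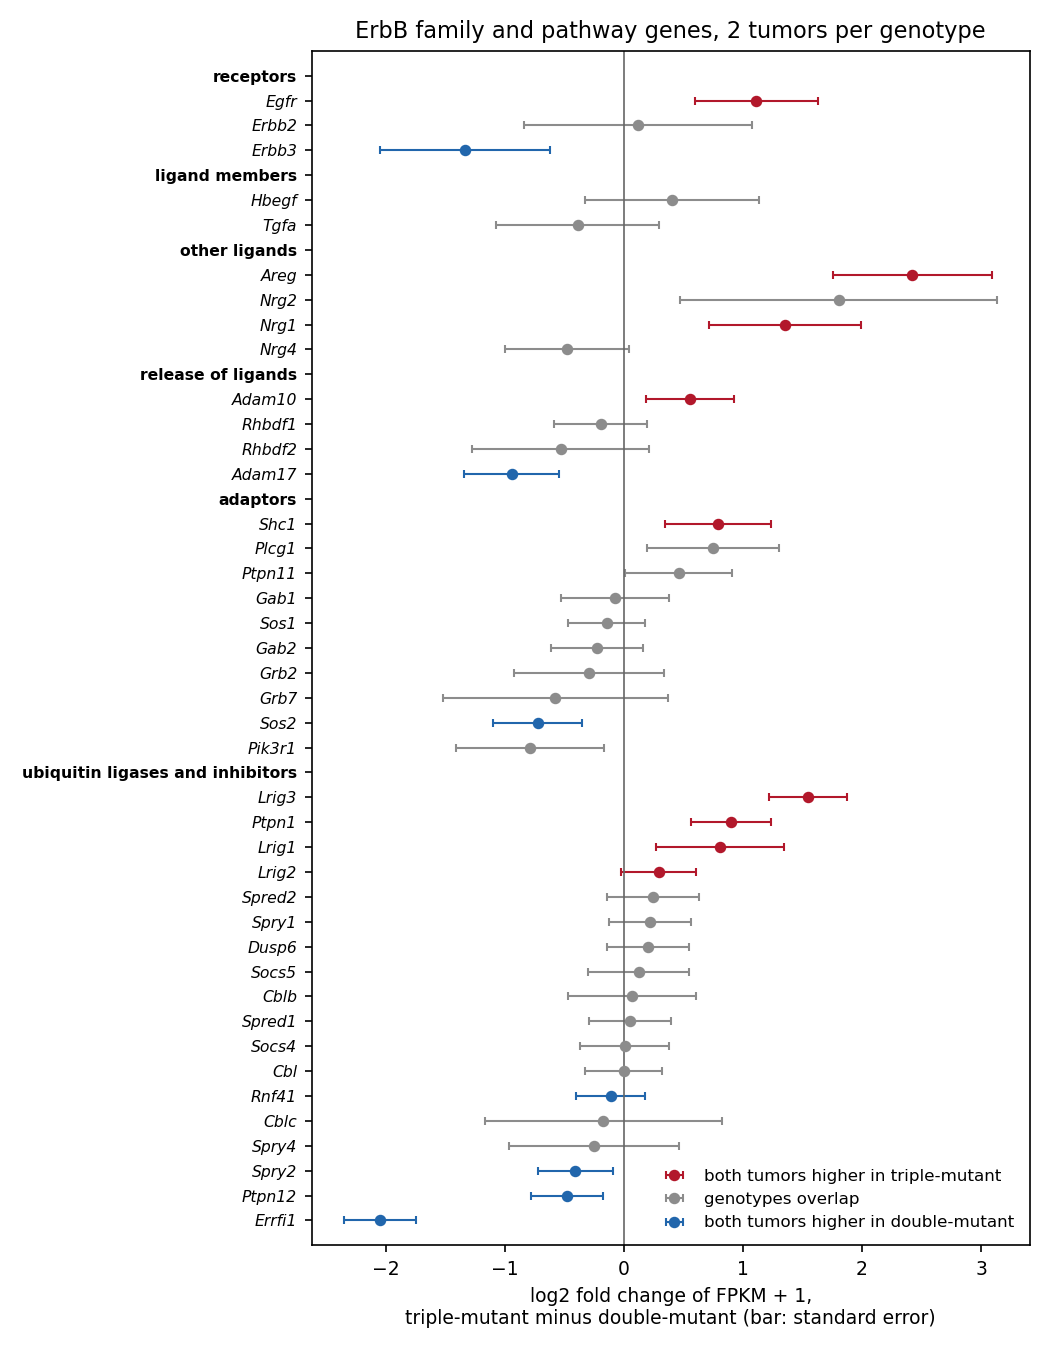
Log2 fold change of each tested member and pathway gene, triple-mutant minus double-mutant, with its standard error from limma, grouped by role and coloured by whether both tumors of a genotype lie above both of the other. Errfi1 at -2.05 and Areg at 2.42 lie farthest from 0, and no gene shown passed the adjusted threshold.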

How the data were processed

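PolyA RNA of 2 triple-mutant and 2 double-mutant tumors was sequenced by the authors as 50-bp single-end reads from dUTP libraries. The authors aligned the reads with TopHat2 2.0.10 and Bowtie 0.12.9 (the submitters' processing notes name mm10) and deposited FPKM values per gene, estimated with Cufflinks 2.1.1, with the bounds of its interval, 1 table per tumor. Read counts were not used here, and the depth of each tumor is unknown. Tables were joined on symbol, position and start-site identifier (23746 rows, 23284 symbols). Of the 21209 rows whose symbol GENCODE M21 holds, 98% lie over the gene of that name on GRCm38, and 1 was added to the starts of the tables.

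The 12752 genes that reached 1 FPKM in 2 or more tumors entered a limma 3.58.1 model (R 4.3.3, eBayes with trend) of log2(FPKM + 1), triple-mutant against double-mutant. Benjamini-Hochberg values under 0.05 were called. A fold change on this scale understates the change of low genes. The script was tested on simulated data. The study describes the females of both genotypes as littermates, but neither it nor the labels say which tumors share a litter, and the labels do not say that each tumor came from a separate animal, so p-values measure the spread between these samples, which may be technical. The members and gene lists were chosen with earlier results of these data known. Named are all 10 members, and in each of 4 pathway groups the 2 genes without overlap and with the largest change. For each receptor the 3 genes of the nearest profile are named as well. Alternatives changed the pseudocount (0.1), the filter (none, or 5 FPKM), the scaling (TPM or quantile), the variance model (no trend), the rows (status OK, or without small RNA genes), the value (midpoint of the interval) or the tumors (each left out). Tables and plots were made in Python 3.11.15 with pandas 2.3.3, numpy 2.4.6 and matplotlib 3.10.9.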

Additional observations from a re-analysis of the deposited data

How the results depend on the processing

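Adjusted p of the 5 tested members stayed above 0.05 in each of the 13 alternatives in which they could be fitted, and 59 of 64 recomputed log2 fold changes kept their sign. The 5 reversals came with a tumor left out: over these fits the log2 fold change ran from -1.15 to 1.39 for Erbb2 (reversed without 26043, and at -0.45 without 26050), from -1.30 to 0.53 for Tgfa (reversed without 26050) and from -0.44 to 1.25 for Hbegf (reversed without 26044, and at -0.15 without 26050). Of the 10 pathway genes refitted, Nrg2 reversed, running from -0.10 (without 26044) to 3.70. Among all genes, 0 were called (1252 at an unadjusted p under 0.05), against 6 with quantile normalization, 5 without the trend and 1 with the interval midpoint, none of them a member or listed pathway gene. With a filter of 5 FPKM Egfr was not tested, so the genotypes were separate with higher triple-mutant values for 0 members and 5 pathway genes. With each tumor left out, members higher in triple-mutant tumors numbered 2 to 2 and in double-mutant tumors 1 to 2, and pathway genes 9 to 17 and 6 to 19, counts that 2 tumors against 1 raise by construction. No paired analysis was possible because the labels give the genotypes no shared replicate numbers and no source used here says which tumors came from the same litter.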

Other observations

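The genes whose profile over the 4 tumors was nearest to each receptor, by Euclidean distance of mean-centred log2(FPKM + 1), are given as a description without a test. Nearest to Egfr were Fam46b, Angptl6 and Ier5l, at distances of 0.149, 0.153 and 0.194 log2 units. For Erbb3 they were Trim47, Macc1 and Pcdh18, at 0.122, 0.136 and 0.140 log2 units. For Erbb2 they were Ddx58, Ccl5 and Ifih1, at 0.242, 0.249 and 0.255 log2 units, of which Ddx58 and Ifih1 encode sensors of viral RNA and Ccl5 a chemokine. Ddx58 was at 33.2 and 4.41 FPKM in triple-mutant and at 21.4 and 7.82 FPKM in double-mutant tumors. The profile of Erbb4 is flat near 0, so its nearest genes were flat ones (Isg20l2, Fam18b and Ifi30).

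Genes near the members are described by the same counts, for which 21.3% of all tested genes were higher in both triple-mutant and 22.9% in both double-mutant tumors. Of 5 tested genes within 500000 bases of Egfr, 0 were higher in both triple-mutant and 3 in both double-mutant tumors, with a median log2 fold change of -0.60 against 1.11 for Egfr. Around Erbb3, 4 of 39 neighbours were higher in both triple-mutant and 9 in both double-mutant tumors (median 0.04). Around Erbb2 the counts were 4 and 1 of 24 (median 0.01), around Tgfa 6 and 1 of 17 (median 0.51), around Hbegf 5 and 3 of 18 (median 0.05) and around Egf 0 and 2 of 6 (median 0.01). The 4 tested neighbours of Areg all overlapped between genotypes, with a median log2 fold change of -0.72 against 2.42 for Areg.

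Of the 40 member values, 9 lay outside the interval that Cufflinks gave for them, all in Erbb2, Erbb3, Hbegf and Btc, beside 5668 to 6827 of the 23746 genes per tumor. Among the pathway genes named above, Nrg2, Adam10, Rhbdf1, Sos2, Grb7, Ptpn1, Dusp6 and Spry1 had 0 tumors inside their own interval.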
